A study of Arabidopsis thaliana with 12 samples.

Results

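DFR and UGT78D1 are enzyme genes of flavonoid synthesis in Arabidopsis thaliana, and each was represented by 1 probe set, found by the gene that the probe annotation names. They are 2 of the 17504 annotated probe sets tested, out of 38408 on the array. Transcript levels in whole Col-0 seedlings were measured on 12 Affymetrix AraGene 1.1 ST arrays, 3 per group. The groups were the mutant amp1-13 with 30 µM hyperphyllin in 1% DMSO, amp1-13 with 1% DMSO, wild type with 30 µM hyperphyllin in 1% DMSO, and wild type with 1% DMSO. All seedlings were 10 days old, grown in liquid medium with 1% sucrose under long days. AMP1 encodes a putative carboxypeptidase whose loss enlarges the shoot meristem, and hyperphyllin is a synthetic compound under which wild-type plants come to resemble such mutants. The design asks what the compound does with and without AMP1, and how the mutant differs from wild type in each medium. No value of AMP1 was analysed here that could check the genotype, and amp1-13 stands for a single mutant allele.

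Flavonoids are made from phenylalanine by way of chalcones and dihydroflavonols. At the dihydroflavonols the pathway divides. Flavonol synthase leads to flavonols, which are stored as glycosides, while dihydroflavonol 4-reductase, encoded by DFR (AT5G42800), commits the intermediate to the anthocyanin branch. UGT78D1 (AT1G30530) encodes a glycosyltransferase that attaches rhamnose to the 3 position of flavonols. In seedlings anthocyanins and flavonols screen light, and anthocyanin genes are known to respond to sugar, light and nutrient status.

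DFR was high in amp1-13 seedlings in DMSO and lower in the other 3 groups. With hyperphyllin, the amp1-13 arrays had log2 values of 5.78, 5.87 and 5.76 for DFR, against 6.83, 7.53 and 7.04 for amp1-13 in DMSO. In wild type the values were 6.67, 5.77 and 5.77 with hyperphyllin, against 6.60, 5.62 and 5.60 in DMSO. All 3 amp1-13 DMSO arrays lay above all 9 other arrays, a pattern that 0.977% of the probe sets tested share. The compound-treated mutant arrays were close to each other, with an SD of 0.06, while array 1 of each wild-type group stood well above its 2 companions.

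The group means of DFR were 5.80 ± 0.06 in amp1-13 with hyperphyllin and 7.13 ± 0.36 in amp1-13 with DMSO (SD, n = 3 each). Wild type averaged 6.07 ± 0.52 with hyperphyllin and 5.94 ± 0.57 with DMSO (SD, n = 3 each). In order of level, amp1-13 in DMSO came first, then treated wild type, wild type in DMSO and treated amp1-13. The last 3 differed by less than the spread between wild-type arrays. Between the first and the second, treated wild type minus amp1-13 in DMSO, the log2 difference was -1.06 ± 0.30 (SE, limma adjusted p = 0.139), in a comparison where 1.01% of the probe sets passed. These arrays did not overlap, as in 11.3% of the probe sets. Treated amp1-13 minus wild type in DMSO gave -0.14 ± 0.30 (limma adjusted p = 0.834), where 4.07% passed.

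**Figure D1:**
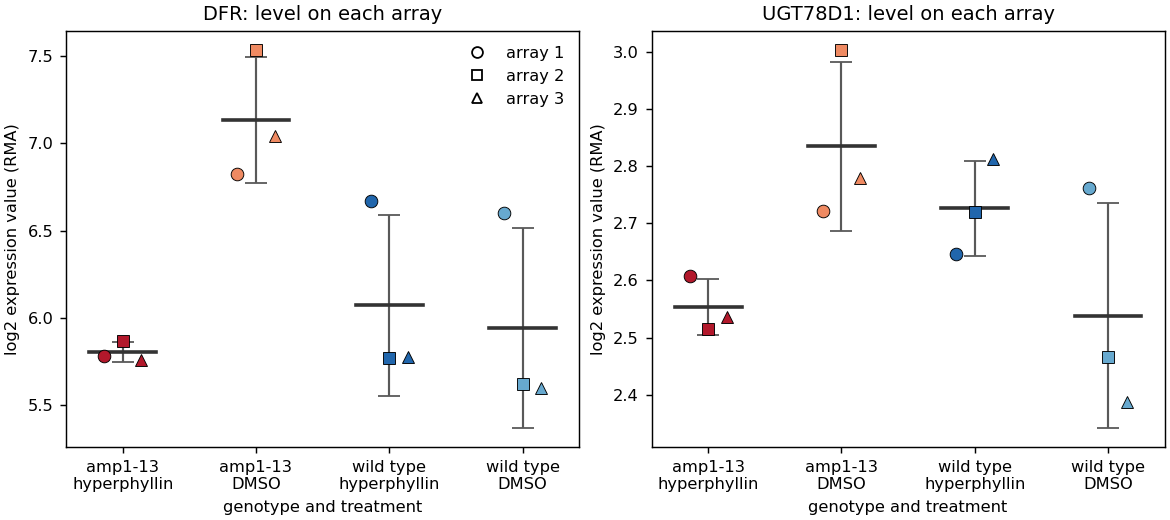
Log2 expression values of DFR (left) and UGT78D1 (right) on each of the 12 arrays, by genotype and treatment. Points are arrays, marked by array number, the thick line is the group mean and the bars are the SD of 3 arrays. DFR in amp1-13 with DMSO spans 6.83 to 7.53, above all other arrays, and array 1 of both wild-type groups sits at 6.67 and 6.60, apart from the others of its group.

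In amp1-13 the compound was accompanied by a DFR level 2.51-fold lower than in DMSO. The log2 difference, hyperphyllin minus DMSO, was -1.33 ± 0.30 (SE, 3 arrays per group, 95% interval -1.98 to -0.68, limma adjusted p = 0.185). No other of the 17504 probe sets had a more negative difference in this comparison, and 71 had a smaller p. The difference did not pass the threshold of 0.05 on the adjusted p. An exact two-sided permutation test of the 3 arrays against 3 gave p = 0.1, the smallest it can give. In this comparison 0.0171% of the probe sets passed, and in 8.7% all treated arrays lay below all DMSO arrays.

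The residual spread of DFR, which sets its standard error, was an SD of 0.43, larger than that of 95.8% of the probe sets. Much of it lay in wild type, where 1 array of each group was high. When the fit held only the 6 amp1-13 arrays, the difference was again -1.33 with an SE of 0.17, and DFR passed (limma adjusted p = 0.0445), as did 0.131% of the probe sets in this direction. It also passed when array 1 of wild type in DMSO was left out of the estimate of spread (-1.33 ± 0.23, limma adjusted p = 0.026), as did 0.526% of the probe sets in this direction. With array weights, which downweight arrays far from their group, it lay at -1.23 ± 0.23 (limma adjusted p = 0.0362), and 0.354% of the probe sets passed in this direction.

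In wild type the compound was accompanied by no such difference. DFR was 0.13 ± 0.30 (log2, SE) above DMSO, with a 95% interval from -0.52 to 0.78 (limma adjusted p = 0.861). The sign depended on single arrays: the difference was -0.17 without array 1 of treated wild type, -0.029 and -0.038 without DMSO arrays 2 and 3, and 0.46 without DMSO array 1. The 2 treatment effects, subtracted from each other, gave an interaction of -1.46 ± 0.42 for DFR (limma adjusted p = 0.403), with a 95% interval from -2.38 to -0.55. Without DMSO array 1 of wild type this was -1.79 ± 0.34 and passed (limma adjusted p = 0.0205), as did 1.41% of the probe sets in this direction. With array weights it was -1.59 ± 0.34 (limma adjusted p = 0.0393), where 1.01% passed in this direction. With all 12 arrays weighted equally, no probe set (0%) passed the interaction test in limma, where the lowest adjusted p was 0.128 and 8.27% had an unadjusted p under 0.05 in limma.

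The genotypes differed in DFR mainly in DMSO. There amp1-13 lay 2.29-fold above wild type, a log2 difference of 1.19 ± 0.30 (SE, 95% interval 0.55 to 1.84, limma adjusted p = 0.0962), and 87 of the 17504 probe sets had a larger positive difference. All amp1-13 arrays lay above all wild-type arrays, as in 6.91% of the probe sets, and 0.326% of the probe sets passed the test in either direction. Leaving out array 1 of wild type moved the difference to 1.52 ± 0.26 and it passed (limma adjusted p = 0.00197), as did 7.15% of all probe sets in this direction. With array weights it was 1.35 ± 0.25 (limma adjusted p = 0.00397), where 7.18% passed in this direction. When the fit held only the 6 DMSO arrays, the difference was again 1.19 with an SE of 0.30 and did not pass (limma adjusted p = 0.389), and no probe set did (0%). In hyperphyllin the difference, amp1-13 minus wild type, was -0.27 ± 0.30 (limma adjusted p = 0.817) with a 95% interval from -0.92 to 0.38, and it was 0.031 without array 1 of treated wild type.

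UGT78D1 was dim and varied within a narrow range. Its values ran from 2.39 to 3.00 (log2), below the median of all probe sets on each of the 12 arrays, by 1.05 to 1.80. Signal over background was not analysed here. Its residual SD was 0.13, against a median of 0.17 over the probe sets tested.

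The treated amp1-13 arrays had UGT78D1 values of 2.61, 2.52 and 2.54, against 2.72, 3.00 and 2.78 in DMSO. Wild type had 2.65, 2.72 and 2.81 with hyperphyllin, against 2.76, 2.47 and 2.39 with DMSO. In the mutant every treated array lay below every DMSO array, as in 8.7% of the probe sets. In wild type the treated arrays lay above DMSO arrays 2 and 3, but DMSO array 1 fell among them. The order of means was amp1-13 in DMSO (2.83 ± 0.15), treated wild type (2.73 ± 0.08), treated amp1-13 (2.55 ± 0.05) and wild type in DMSO (2.54 ± 0.20; SD, n = 3 each). The first pair of neighbours differed by -0.11 ± 0.12 (treated wild type minus amp1-13 in DMSO, SE) and the last pair by 0.01 ± 0.12 (treated amp1-13 minus wild type in DMSO, SE), both within the spread. The arrays of the middle pair, treated amp1-13 and treated wild type, did not overlap, as in 10.6% of the probe sets. Their difference, treated amp1-13 minus treated wild type, was -0.17 ± 0.12 (SE) and did not pass (limma adjusted p = 0.666).

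Hyperphyllin minus DMSO gave -0.28 ± 0.12 for UGT78D1 in amp1-13 (log2, SE, 95% interval -0.54 to -0.03, limma adjusted p = 0.64) and 0.19 ± 0.12 in wild type (95% interval -0.07 to 0.44, limma adjusted p = 0.438). Neither passed, where 0.0171% and 1.64% of the probe sets did. The interaction was -0.47 ± 0.17 (limma adjusted p = 0.481). It was -0.58 ± 0.15 without DMSO array 1 of wild type, and still did not pass (limma adjusted p = 0.0607).

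Between genotypes, UGT78D1 lay 0.30 ± 0.12 higher in amp1-13 than in wild type in DMSO (95% interval 0.04 to 0.55, limma adjusted p = 0.242) and at -0.17 ± 0.12 in hyperphyllin (95% interval -0.43 to 0.08, limma adjusted p = 0.666). In hyperphyllin all mutant arrays lay below all wild-type arrays, as in 10.6% of the probe sets, and 0.229% of the probe sets passed the test. Without DMSO array 1 of wild type the difference in DMSO was 0.41 ± 0.11 and passed (limma adjusted p = 0.0252), in a fit where 7.15% of the probe sets passed in that direction.

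With all 12 arrays weighted equally, neither gene passed limma's adjusted test in any of the 5 comparisons. At an unadjusted p under 0.05, both lay lower with hyperphyllin in amp1-13, both lay higher in amp1-13 in DMSO and both had a negative interaction, while neither reached it with hyperphyllin in wild type or between genotypes in hyperphyllin. Of all probe sets, 3.83% lay lower at that p with hyperphyllin in amp1-13, 7.55% lay higher in amp1-13 in DMSO and 4.21% had a negative interaction. In either direction, 17.5% reached it with hyperphyllin in wild type and 10% between genotypes in hyperphyllin. The comparisons share arrays, since amp1-13 in DMSO enters 3 of them.

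**Figure D2:**
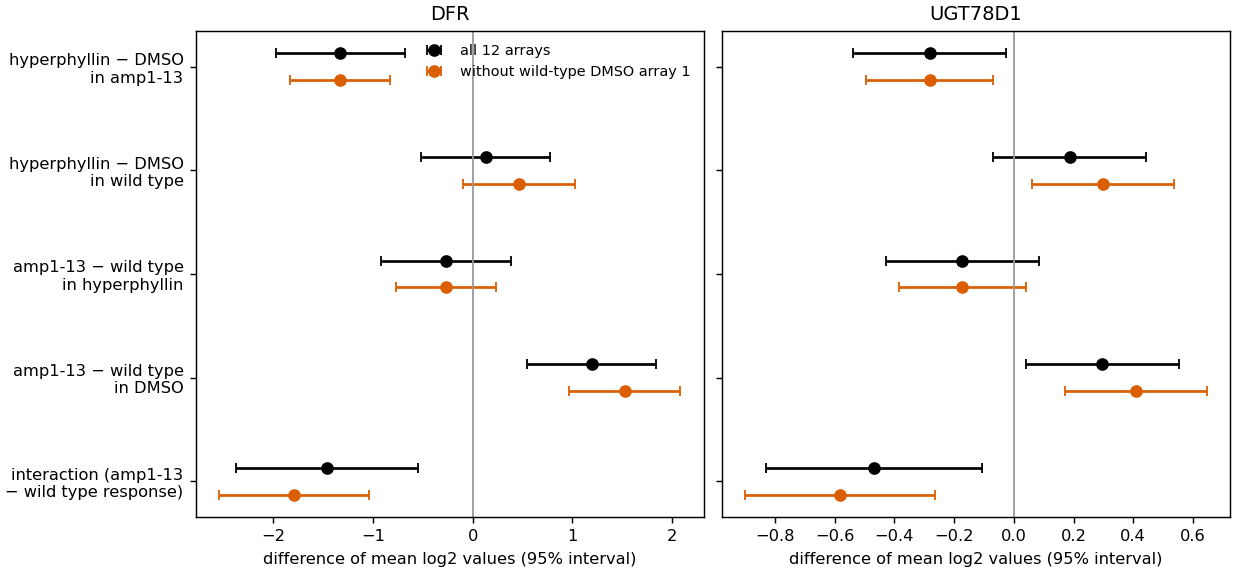
Differences of mean log2 values with 95% intervals from the fit over all probe sets, for DFR (left) and UGT78D1 (right). Black points use all 12 arrays and orange points leave out array 1 of wild type with DMSO. For DFR the interval lies below 0 in amp1-13 (-1.98 to -0.68) and spans 0 in wild type (-0.52 to 0.78).

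The array that moved these calls, DMSO array 1 of wild type, stood apart as a whole. Over all probe sets it correlated on average at 0.973 with its own group and at 0.987 with the remaining groups. For the other 11 arrays the within-group average was from 0.982 to 0.995, and each was closer to its own group than to the others. The labels call the arrays biological replicates but do not say whether they came from separate sowings, so the p values measure the spread between these samples. In whole seedlings, fewer cells of a type and less RNA per cell cannot be told apart.

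**Figure D3:**
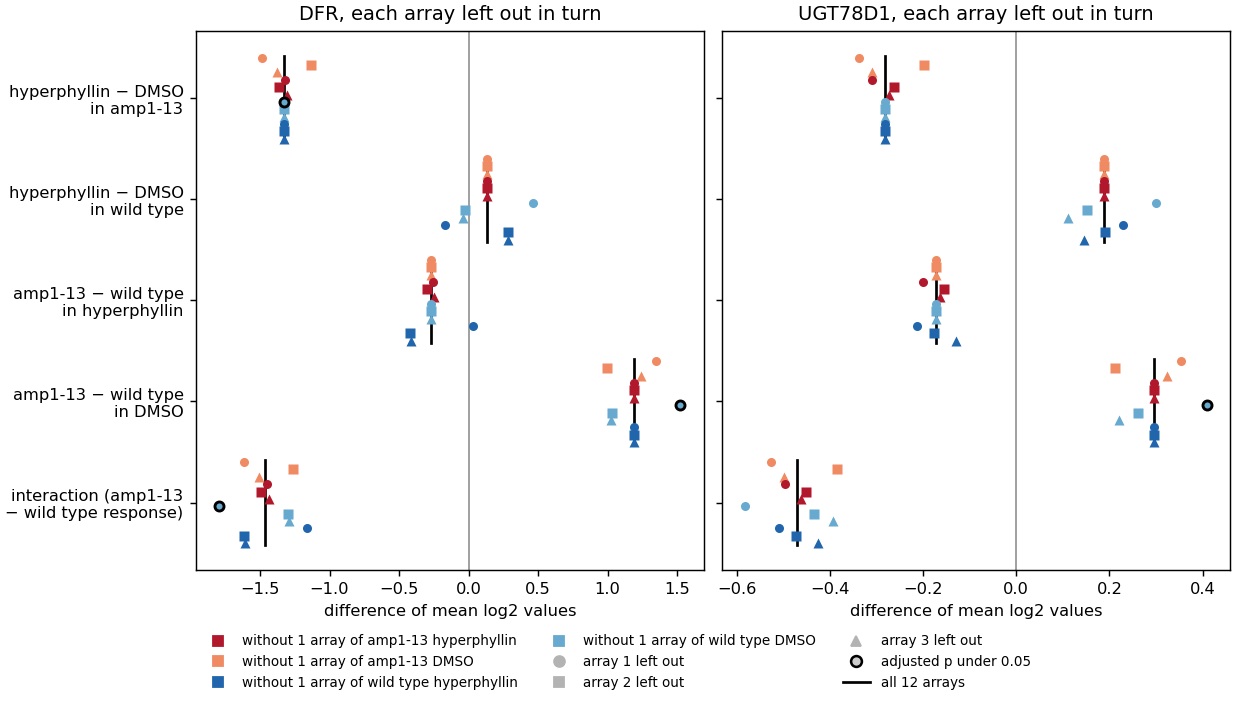
Difference of mean log2 values for DFR (left) and UGT78D1 (right) with each of the 12 arrays left out in turn. Colour gives the group of the array left out, shape its number, a black outline an adjusted p under 0.05 and the black line the value with all 12 arrays. The outlined points are those without array 1 of wild type with DMSO, and DFR in wild type changes sign when single wild-type arrays are left out.

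For the rest of the pathway, 56 genes were written into 7 lists by enzyme step or regulatory role, and 13 of them, DFR and UGT78D1 included, had a probe set naming only that gene. The measured genes were mostly late: 6 of 10 for the anthocyanin branch, 5 of 6 for flavonol glycosylation, 1 of 8 for the early flavonoid and flavonol steps and 1 of 4 for proanthocyanidins. None of the 8 general phenylpropanoid genes, 13 activating factors and 7 repressing factors was among the named probe sets, so MYB, bHLH and WD40 regulators of DFR were not analysed here. None of the 13 genes passed limma's adjusted test in any of the 5 comparisons with all 12 arrays weighted equally. Few probe sets did: 1.64% of all with hyperphyllin in wild type and 0.0171% in amp1-13. Between genotypes the shares were 0.326% in DMSO and 0.229% in hyperphyllin, and for the interaction 0%. The lists were chosen with earlier results of these data known.

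With hyperphyllin in amp1-13, 8 of the 11 other genes had lower means and 3 higher, with a median of -0.15. Over all probe sets the median was -0.0014, and 49.6% had higher means. CHIL, which encodes a chalcone isomerase-like protein that assists the early steps, came nearest to DFR in this comparison. Its values were 4.59, 4.76 and 4.76 in treated amp1-13, against 5.10, 5.45 and 5.44 in amp1-13 with DMSO. The arrays did not overlap, as in 8.7% of the probe sets, and the difference was -0.63 ± 0.15 (log2, SE, limma adjusted p = 0.202). CHIL passed together with DFR once the fit left out array 1 of wild type in DMSO (limma adjusted p = 0.0459), where 0.526% of the probe sets passed in this direction.

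Of the 6 late anthocyanin genes measured, DFR included, 5 had lower means with hyperphyllin in amp1-13 and 1 a higher mean. A3AT2, an anthocyanin acyltransferase gene, lay at -0.47 ± 0.17 in treated amp1-13 (limma adjusted p = 0.548), while its relative A3AT1 lay at 0.41 ± 0.22 (limma adjusted p = 0.783). A3AT1 had 3 probe sets that disagreed in sign, at 0.41, 0.13 and -0.39, and the first, with the highest mean, stands for the gene here. UGT79B1 and UGT75C1, which add xylose and glucose to anthocyanins, lay at -0.16 and -0.15, and A5MAT, an anthocyanin malonyltransferase gene, at -0.20. A3AT2, UGT79B1, UGT75C1 and A5MAT were dim, below the median of all probe sets on each of the 12 arrays. So were UGT78D1, UGT78D2, UGT78D3 and BAN, and the counts of higher and lower means include these dim genes.

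In amp1-13 against wild type in DMSO, 7 of the 11 other genes had higher means and 4 lower, with a median of 0.15. A3AT1 counts as lower at -0.27 ± 0.22, while its other probe sets lay at -0.093 ± 0.13 and 0.44 ± 0.19. Over all probe sets the median was -0.039, and 42% had higher means. CHIL lay 0.69 ± 0.15 higher in the mutant (log2, SE, limma adjusted p = 0.0648), and its wild-type DMSO values were 4.89, 4.71 and 4.33. Like DFR, CHIL was above all 9 other arrays on each amp1-13 DMSO array, and these were the only such genes among the 13. Of all probe sets, 0.977% had this pattern. Without DMSO array 1 of wild type, 5 of the 13 genes passed: DFR, CHIL (0.81), A5MAT (0.65) and UGT78D1 higher in the mutant, and UGT78D3 lower (-0.64). Of all probe sets, 7.15% passed as higher and 8.11% as lower in that fit.

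UGT78D3 had the opposite sign to UGT78D1 in each comparison, while UGT78D2 shared the sign of UGT78D1 in some. The comparisons share arrays, and some differences of UGT78D3 were small. It lay at 0.17 ± 0.14 with hyperphyllin in amp1-13 (limma adjusted p = 0.873). Between genotypes in hyperphyllin it lay at 0.12 ± 0.14 (limma adjusted p = 0.824). UGT78D2 encodes the glucosyltransferase that acts at the same position of flavonols and anthocyanidins, and UGT78D3 an arabinosyltransferase of flavonols. In DMSO, UGT78D2 lay 0.30 ± 0.25 higher in amp1-13 than in wild type (limma adjusted p = 0.595), while UGT78D3 lay at -0.55 ± 0.14 (limma adjusted p = 0.0988). UGT78D2 also had the sign of UGT78D1 with hyperphyllin in amp1-13 (-0.26 ± 0.25) and for the interaction (-0.20 ± 0.36). Its sign differed with hyperphyllin in wild type (-0.058 ± 0.25) and between genotypes in hyperphyllin (0.099 ± 0.25). UGT78D3 had values of 2.00, 1.79 and 1.73 in amp1-13, against 2.19, 2.65 and 2.32 in wild type. All 3 wild-type DMSO arrays were above all 9 other arrays, as for 2.34% of the probe sets. Treated wild type, at 1.83, 1.74 and 2.10, lay -0.49 ± 0.14 from its DMSO control (limma adjusted p = 0.0882), and at -0.59 when DMSO array 1 was left out (limma adjusted p = 0.0135), where 7.69% of the probe sets passed in this direction. The interaction of UGT78D3 was 0.67 ± 0.19, opposite in sign to that of UGT78D1, and it did not pass (limma adjusted p = 0.407). Like UGT78D1, it lay below the median of every array.

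With hyperphyllin in wild type, 3 of the 11 other genes had higher means and 8 lower, with a median of -0.073. Over all probe sets the median was -0.048, and 40.6% had higher means. The highest was UGT73C6, a flavonol 7-O-glucosyltransferase gene, at 0.54 ± 0.15 (limma adjusted p = 0.0804), and a second, dimmer probe set of it lay at 0.39 ± 0.16 (limma adjusted p = 0.226). Between genotypes in hyperphyllin, 7 were higher and 4 lower in amp1-13, with a median of 0.10, and the lowest limma adjusted p among the 13 was 0.543. Over all probe sets the median was 0.0024, and 50.6% had higher means. For the interaction 3 of the 11 were above 0 and 8 below, with a median of -0.16, where the median over all probe sets was 0.040 and 57% were above 0. UGT89C1, a flavonol 7-O-rhamnosyltransferase gene, lay at -0.37 ± 0.19 (limma adjusted p = 0.655), while its other probe set lay at -0.10 ± 0.16 (limma adjusted p = 0.898). With hyperphyllin in amp1-13 the probe sets of UGT89C1 differed in sign, at -0.086 and 0.23, as did those of UGT73C6, at 0.20 and -0.031. The interaction of BAN, the anthocyanidin reductase gene of the proanthocyanidin branch, was -0.01 ± 0.17 (limma adjusted p = 0.992).

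**Figure D4:**
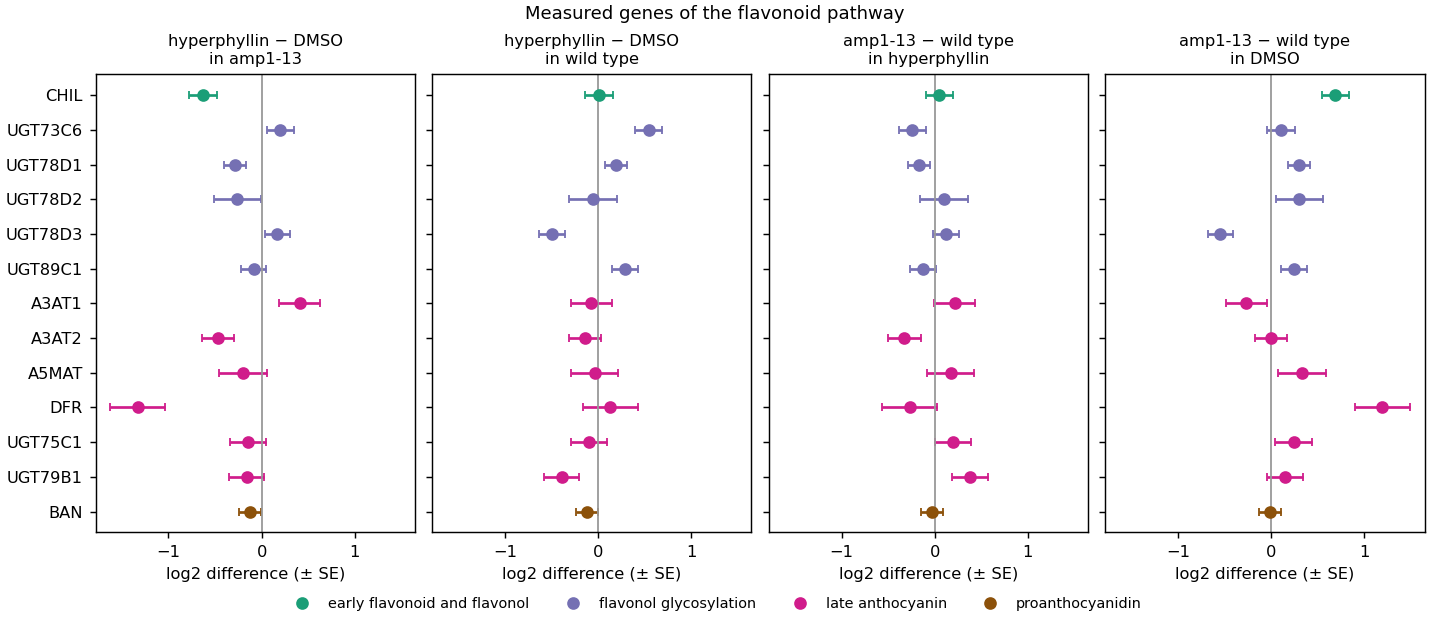
Log2 differences with standard errors for the 13 measured flavonoid genes in 4 comparisons, coloured by list. DFR reaches -1.33 with hyperphyllin in amp1-13 and 1.19 in amp1-13 against wild type in DMSO, and CHIL follows at -0.63 and 0.69. UGT78D3 has the opposite sign to UGT78D1 in each comparison drawn. It lies at only 0.17 ± 0.14 with hyperphyllin in amp1-13 and 0.12 ± 0.14 between genotypes in hyperphyllin.

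DFR and UGT78D1 varied together in part. Their Pearson correlation over the 12 arrays was 0.75, and 0.56 after the group means were removed. The arrays share their groups and their processing, so this is a description. Likeness was ranked over 413 probe sets with a symbol and an SD of at least 0.3. This filter left out UGT78D1, whose values varied little, so it could not appear in the ranking for DFR. CHIL was the most like DFR (r = 0.83 over 12 arrays, 0.46 without group means). Next came CYP71B36, a cytochrome P450 gene (0.77, and 0.88 without group means), and PIF7, a bHLH factor of light signalling (0.76 and 0.64). A5MAT (0.74 and 0.89) and CSLB03, a cellulose synthase-like gene (0.73 and 0.63), followed. The first value of each pair is over the 12 arrays and the other without group means. Array 1 of wild type in DMSO is part of both, here and in the rankings below. Without it the first values were 0.84 for CHIL, 0.78 for CYP71B36, 0.81 for PIF7, 0.76 for A5MAT and 0.72 for CSLB03. In A5MAT, array 1 was likewise the highest of treated wild type, at 3.07 against 2.60 and 2.52, and of wild type in DMSO, at 3.41 against 2.55 and 2.35.

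The genes most opposite to DFR were GH3.3, which conjugates auxin to amino acids (-0.77 and -0.58), the clock gene GI (-0.69 and -0.88) and CLE44, a gene of a signalling peptide (-0.69 and -0.68). For UGT78D1 the most alike were the ubiquitin ligase gene RING1 (0.82 and 0.85), the acylhydrolase gene DLAH (0.82 and 0.70), the sugar transporter gene SWEET1 (0.81 and 0.61), the methyltransferase gene FAMT (0.80 and 0.71) and PIF7 (0.79 and 0.77). GH3.3 (-0.81 and -0.89), IAA29, an Aux/IAA repressor gene (-0.76 and -0.93), and ALPHA-VPE, a gene of a vacuolar processing enzyme (-0.73 and -0.58), were the most opposite. PIF7 and GH3.3 appeared in the rankings of both genes.

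**Figure D5:**
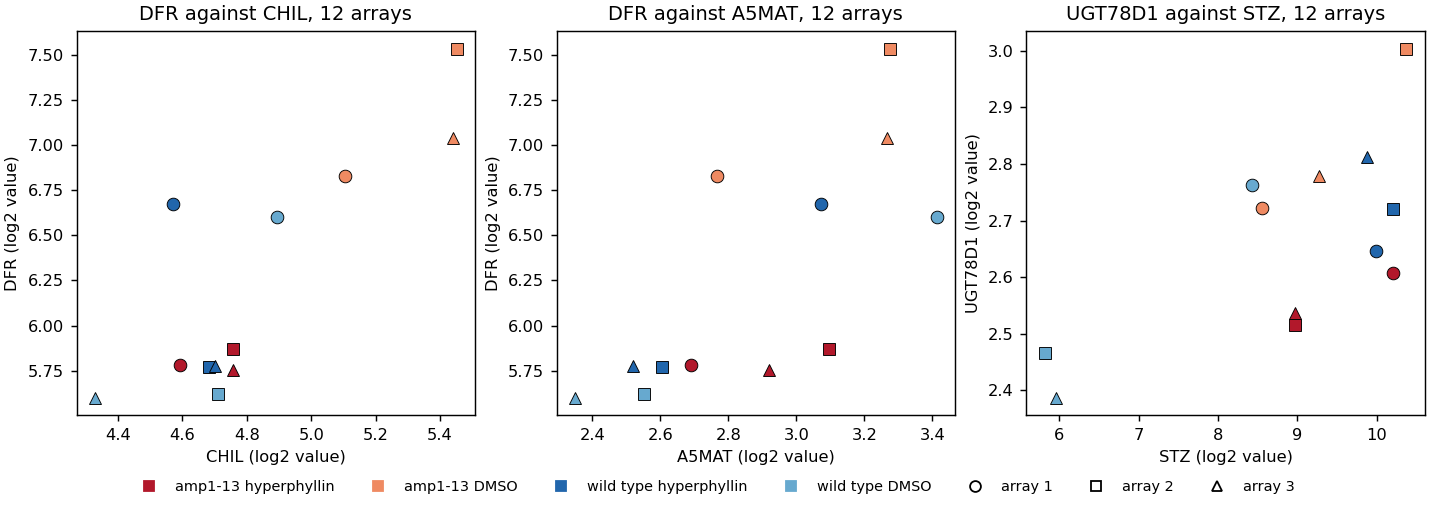
Log2 values on the 12 arrays for DFR against CHIL (left), DFR against A5MAT (middle) and UGT78D1 against STZ (right), with colour for the group and shape for the array number. The amp1-13 DMSO arrays are highest in DFR and CHIL, array 1 of both wild-type groups is high in DFR and A5MAT, and wild-type DMSO arrays 2 and 3 are lowest in UGT78D1 and STZ.

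Markers of tissue and stress also differed between arrays and groups. The stress marker measured, 1 of 4 on the list, was STZ, a zinc-finger repressor induced by many stresses. With hyperphyllin in wild type STZ rose by 3.29 ± 0.63 (log2, SE, limma adjusted p = 0.0291), at 10.00, 10.20 and 9.88, against 8.43, 5.81 and 5.96 with DMSO, beside the 0.13 of DFR and the 0.19 of UGT78D1. STZ had values of 8.56, 10.38 and 9.27 in amp1-13 with DMSO, against 8.43, 5.81 and 5.96 in wild type with DMSO. It correlated with UGT78D1 at 0.69 over the 12 arrays and at 0.89 after group means were removed, and with DFR at 0.39 and 0.71. Array 1 of wild type in DMSO, which stood apart from its group, is part of all these values. Removing group means does not remove its distance from its group, and STZ was not correlated without it. With hyperphyllin in amp1-13 STZ lay at -0.02 ± 0.63 (log2, SE, limma adjusted p = 0.998), beside the -1.33 of DFR and the -0.28 of UGT78D1. In DMSO it lay 2.67 ± 0.63 higher in amp1-13 than in wild type (limma adjusted p = 0.0903), beside the 1.19 of DFR and the 0.30 of UGT78D1.

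The root hair expansin genes EXPA7 and EXPA18, 2 of 6 root markers, were highest on DMSO arrays 2 and 3 of wild type. EXPA7 lay between 4.78 and 5.60 in treated amp1-13, amp1-13 in DMSO and treated wild type, against 5.13, 6.79 and 6.52 in wild type with DMSO. Of the green tissue markers LHCB4.1, RCA and PSAE-1, 3 of 6 on the list, values ran from 7.87 to 10.87 over all arrays, and their differences with hyperphyllin in amp1-13 were from 0.01 to 0.14. With hyperphyllin in wild type PSAE-1 rose by 0.55 ± 0.10 (limma adjusted p = 0.025), LHCB4.1 lay at 0.40 ± 0.13 (limma adjusted p = 0.140) and RCA at -0.0095 ± 0.084 (limma adjusted p = 0.968). In DMSO between the genotypes LHCB4.1 lay at 0.42 ± 0.13 and PSAE-1 at 0.35 ± 0.10, and neither passed (limma adjusted p = 0.157 and 0.130). RCA lay at 0.12 ± 0.084 in that comparison (limma adjusted p = 0.528). None of the 3 seed markers was measured. The part of root, green tissue and stress in the DFR and UGT78D1 differences was not tested.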

How the data were processed

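The authors deposited 1 log2 value per probe set and array, computed with RMA according to the submitters' processing notes. This method subtracts background, makes the arrays' distributions alike and reduces the probes of a probe set to 1 value. Which program and probe definitions they used is not given in the sources used here. Values ran from 0.593 to 12.731 with array medians from 4.05 to 4.18, and were used as deposited. Of 38408 probe sets, 17504 carried a gene (16746 of them 1 gene), and 16601 matched a locus in the RefSeq table of TAIR10.1, used for names only. For genes with several probe sets, the one with the highest mean stands.

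All 12 arrays entered 1 linear model with a mean for each group, fitted in R 4.3.3 with limma 3.58.1 and its eBayes step (8 residual and 3.9 prior degrees of freedom). P values were adjusted by the Benjamini-Hochberg method across the 17504 probe sets, and 0.05 was the threshold. The 2 differences between treated arrays of one genotype and DMSO arrays of the other were added for the order of levels. The fit was tested on simulated data. The number of arrays limits the precision. Members, lists and tests were chosen with earlier results of these data known. Named genes were the 2 members, the measured list genes (those with the lowest p first), and the 5 most alike and 3 most opposite genes by Pearson correlation.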

Additional observations from a re-analysis of the deposited data

How the results depend on the processing

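For DFR and UGT78D1, 193 recomputed differences over the 5 comparisons gave 180 with the same direction and side of the threshold, 9 that newly passed and 4 that turned sign. Array weights made DFR pass with hyperphyllin in amp1-13 (-1.23), in DMSO between genotypes (1.35) and for the interaction (-1.59), and UGT78D1 in DMSO between genotypes (0.33). With only the groups of the comparison, DFR passed with hyperphyllin in amp1-13 (-1.33), with the same difference and a smaller residual spread. Quantile normalization, centring on the median, all probe sets, and trend with robust estimation moved no call of the 2 genes.

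With each array left out in turn, DFR ran from -0.17 to 0.46 with hyperphyllin in wild type, -1.48 to -1.13 in amp1-13, 0.99 to 1.52 between genotypes in DMSO, -0.42 to 0.031 in hyperphyllin, and -1.79 to -1.16 for the interaction. UGT78D1 ran from 0.11 to 0.30, -0.34 to -0.20, 0.21 to 0.41, -0.21 to -0.13 and -0.58 to -0.39. Hyperphyllin in amp1-13 minus DMSO in wild type turned to 0.12 for DFR with array weights, and ran from -0.31 to 0.19 for DFR and from -0.061 to 0.13 for UGT78D1 with arrays left out; the cause was not tested.

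The count of flavonoid genes past the test, 0 of 13 in each comparison as reported, was 2 with hyperphyllin in wild type, 1 in amp1-13, 4 between genotypes in DMSO and 2 for the interaction with array weights, where 17.3%, 0.583%, 15.2% and 1.66% of all probe sets passed. It was 1 in amp1-13 with only the groups compared (DFR; 0.217% of all). It was 1 in DMSO between genotypes among the brighter probe sets (CHIL; 1.73% of all), a filter that left UGT78D1 out. With arrays left out the counts ran from 0 to 1, 0 to 2, 0 to 5, 0 to 0 and 0 to 1, in the order of the comparisons above, where the shares of all probe sets ran from 0.131% to 14%, 0.0114% to 0.788%, 0% to 15.3%, 0.00571% to 3.3% and 0% to 2.75%.

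Whether the replicate numbers pair the arrays is not known from the labels. The correlation of same-numbered deviations from group means ran from -0.28 to 0.29 and exceeded 0.1 in 4 of 18 pairs. With the replicate number as a block, the differences of DFR and UGT78D1 were as before, no call of theirs moved, and 1 flavonoid gene passed with hyperphyllin in wild type (UGT73C6, 0.54; 1.08% of all).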

Other observations

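The genes next to DFR and UGT78D1 on their chromosomes were looked at after the values of both were seen. The nearest measured gene before DFR, LCR28, lay at 0.28 with hyperphyllin in amp1-13 and at -0.25 in amp1-13 against wild type in DMSO (log2). The nearest after it, U2AF35B of the splicing machinery, lay at 0.13 and -0.21. The differences of DFR itself were -1.33 and 1.19. For UGT78D1, the nearest measured genes AT1G30515 and AT1G30540 lay at 0.15 and 0.32 with hyperphyllin in amp1-13, and at -0.12 and -0.26 in DMSO between the genotypes. None of these 4 genes passed limma's adjusted test in either comparison.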
